A study of Mus musculus with 24 samples.

Results

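STAT proteins carry the signal of cytokine receptors to the nucleus. RNA of 5 genes of this family, Stat2, Stat3, Stat5a, Stat5b and Stat6, was followed through 24 samples of the C57BL/6 mouse colorectal cancer line MC38. The 5 genes were taken as a family by symbol, not by their values, from a table of 52636 genes of which 52403 had a symbol. In these samples Stat6 separated the lines most sharply, with its highest level in MC38-FUT9 and its lowest in MC38-MOCK#1 and the double knockout. Stat2 was lowest in MC38-FUT9 and was the gene of the family that varied most among samples of the same line.

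The series holds 8 lines with 3 samples each, harvested at the passages given below. MC38-WT (passages 7, 8 and 9) is the parent line and is the only line that received no puromycin. MC38-MOCK#1 (passages 4, 5 and 6) is the control of the CRISPR-Cas9 knockouts. MC38-COSMC KO lost C1galt1c1, which encodes COSMC, the chaperone of the enzyme that elongates the Tn antigen, and is a bulk population sorted by binding of the lectin HPA. MC38-CMAS KO lost Cmas, whose product activates sialic acid, and MC38-DKO lost both genes. All 3 knockouts were taken at passages 4, 5 and 6. MC38-MOCK#2 (passages 6, 7 and 8) is the control of the lines labelled MC38-FUT4 (passages 7, 8 and 7) and MC38-FUT9 (passages 6, 7 and 8), in which a fucosyltransferase gene was activated by CRISPR-dCas-VPR. Samples 1 and 3 of the line labelled MC38-FUT4 are both of passage 7, and the labels do not say whether they were harvested apart. Each entered as its own sample, for n = 3. Each genotype is represented by 1 line, so genotype and line cannot be told apart in any comparison. Comparisons with MC38-MOCK#1 share its 3 samples, and both comparisons with MC38-MOCK#2 share its samples. The tests set differences against the spread between harvests of a line, which may be technical. Passage and line cannot be told apart for MC38-WT against MC38-MOCK#1 or for MC38-MOCK#2 against MC38-MOCK#1.

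Values are normalized counts, the read counts of each library scaled by the authors and rounded. Their totals lay between 10911849 and 12263307 per sample, and the depth behind them was estimated at 6800000 to 16200000 reads, with a median of 11800000. The RNA of the targeted genes was checked first. C1galt1c1 lay at 124 to 163 in MC38-COSMC KO and at 220 to 251 in MC38-MOCK#1. MC38-MOCK#2 (154 to 217) and MC38-CMAS KO (152 to 215) overlapped MC38-COSMC KO, so this RNA did not set that knockout apart from all lines with the gene intact. MC38-DKO (166 to 206) overlapped MC38-CMAS KO, so the double knockout was not separated either. Cmas lay at 93 to 126 in MC38-CMAS KO, at 122 to 142 in MC38-DKO and at 272 or more elsewhere. Fut9 reached 641 to 955 in MC38-FUT9. The line labelled MC38-FUT4 went against its label, with Fut4 at 0 to 1 and Fut9 at 171 to 209, so it is called by its label only. Of the marker lists, the sum of 8 epithelial genes was 0 to 19 per sample, so the defining genes of epithelium were at or near 0 in a line labelled as a colorectal cancer. That of 4 endothelial genes was 0 to 19 and that of 6 leukocyte genes 18 to 66, most of it Cd68 (17 to 63), with the T cell gene Cd3e at 0. The sum of 6 fibroblast genes was 569 to 2561, with Pdgfra at 401 to 1427 and Thy1 at 0.

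A cytokine that binds its receptor activates Janus kinases, which phosphorylate STAT proteins. The phosphorylated proteins pair and enter the nucleus, where they bind short DNA motifs near their target genes. RNA levels such as these do not measure phosphorylation. STAT2 acts with IRF9 in the complex that answers type I interferon, STAT3 answers cytokines of the IL-6 family, STAT5A and STAT5B answer prolactin, growth hormone and several interleukins, and STAT6 answers IL-4 and IL-13.

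The promoter of Stat2 is shown because its own DNA holds the motif that the interferon complex binds. The 250 bases before the RefSeq start of Stat2 (GRCm38.p6, chr10:128270248-128270497, plus strand) are given with matches to 2 motifs in capitals. The first capitals are an interferon-stimulated response element (ISRE, searched as GAAA, any 2 bases, GAAA) read on the opposite strand, at bases -222 to -213 from the start, and the next are a STAT6-type site (searched as TTC, any 4 bases, GAA) at bases -210 to -201.
Stat2: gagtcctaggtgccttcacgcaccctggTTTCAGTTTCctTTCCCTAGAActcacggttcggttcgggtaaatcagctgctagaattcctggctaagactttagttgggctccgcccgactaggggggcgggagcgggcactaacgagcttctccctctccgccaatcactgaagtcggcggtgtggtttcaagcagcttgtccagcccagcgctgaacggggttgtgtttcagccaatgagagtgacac
Both strands were searched in 32851 promoters of 27025 genes. The ISRE occurred in 2.98% of these promoters, the STAT6-type site in 5.85% and the gamma-activated site (GAS, searched as TTC, any 3 bases, GAA) in 7.02%. Of the 7 promoter windows of the 5 genes, the Stat2 window was the only one with any match. The Stat6 window (chr10:127642736-127642985, plus strand) is shown for contrast and held none.
Stat6: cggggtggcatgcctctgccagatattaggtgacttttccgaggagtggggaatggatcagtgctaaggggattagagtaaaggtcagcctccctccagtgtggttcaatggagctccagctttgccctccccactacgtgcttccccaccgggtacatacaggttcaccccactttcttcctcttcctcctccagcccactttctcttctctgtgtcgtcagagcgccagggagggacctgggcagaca
These matches describe letters and say nothing of binding.

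Among 16 interferon-stimulated genes listed as STAT2 targets, 12 had a RefSeq promoter and 6 of these held an ISRE within 250 bases, against 3.46% of all genes. For 5 of the 6, 1 match each is given below that of Stat2, in windows of 30 bases, because their RNA is compared with that of Stat2 further on. The capitals mark the ISRE.
Stat2 (chr10:128270266-128270295, plus strand, bases -222 to -213): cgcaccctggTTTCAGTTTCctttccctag
Ifit1 (chr19:34640794-34640823, plus strand, bases -85 to -76): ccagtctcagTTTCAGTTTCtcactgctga
Ifit3 (chr19:34583397-34583426, plus strand, bases -122 to -113): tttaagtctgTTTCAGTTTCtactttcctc
Isg15 (chr4:156200871-156200900, minus strand, bases -72 to -63): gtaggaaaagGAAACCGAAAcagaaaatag
Rsad2 (chr12:26456553-26456582, minus strand, bases -120 to -111): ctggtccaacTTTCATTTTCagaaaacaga
Oas1a (chr5:120907526-120907555, minus strand, bases -20 to -11): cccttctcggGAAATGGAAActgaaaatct
Isg15 held 3 matches and Ifit1 and Ifit3 2 each, and the match closest in letters to that of Stat2 was chosen for Ifit1 and Ifit3. The other match of both genes reads TTTCACTTTC. Bst2 was the remaining gene with a match and is not printed, although its RNA is also given further on. In the list for STAT3, 2 of 13 genes with a promoter held a GAS (Socs3 and Icam1), in that for STAT5 1 of 6 (Bcl6), and in that for STAT6 2 of 8 held a STAT6-type site (Ccl17 and Retnla). For comparison, 8.13% of all genes held a GAS and 6.76% a STAT6-type site.

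The 5 genes lie in 2 groups on the genome (GRCm38). Stat6 (chr10:127642986-127660957, plus strand) and Stat2 (chr10:128270559-128292849, plus strand) lie on chromosome 10. Stat5b (chr11:100780731-100850724, minus strand), Stat5a (chr11:100859351-100885169, plus strand) and Stat3 (chr11:100885098-100939540, minus strand) lie side by side on chromosome 11. Stat3 and Stat5a overlap by 72 bases on opposite strands, and Stat6 and Nab2 overlap by 40 bases, Nab2 having 482 to 1408 normalized counts. The library kit keeps strand, but whether the counting used it is not given in the sources used here, and reads over more than 1 gene were left out.

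Stat5a and Stat5b are close copies, so their reads bear on how far both can be told apart. Their coding sequences of 2394 and 2361 bases were identical at 2081 of 2294 aligned bases (90.7%). The longest identical run covers 324 bases, coding bases 571 to 894 of both genes. Its first 150 bases are shown in capitals after the 25 bases of Stat5a before it in lower case.
Stat5a: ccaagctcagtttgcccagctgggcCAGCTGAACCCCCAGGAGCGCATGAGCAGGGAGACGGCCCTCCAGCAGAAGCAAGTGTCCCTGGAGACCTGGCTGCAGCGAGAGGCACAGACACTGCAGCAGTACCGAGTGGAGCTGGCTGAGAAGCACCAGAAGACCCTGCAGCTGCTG
A read of 50 bases from this run cannot be assigned to a single gene. Of all distinct stretches of 50 bases in its transcripts, Stat5a shared 631 of 7407 (8.52%) with another gene and Stat5b 608 of 5535 (11%). Stat2 shared 0.788% and Stat3 0.555%, and Stat6 shared 0 of 4443. How reads that map to several places were counted is not given in the sources used here.

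Stat6 was the most abundant of the family per length, at 329 normalized counts per kilobase of exon over the 24 samples, followed by Stat5b at 124, Stat3 at 96.9, Stat2 at 94.9 and Stat5a at 62.3. All 5 genes passed the filter on low values. Among the 8 lines, 4 of the 5 differed (limma F test over all genes), where 43% of all 23695 genes tested did. Where only genes with a mean of at least 10 were fitted, 9153 of 13515 differed, and so did all 5 STAT genes. Shares of all genes, here and below, include genes of low counts, which were called less often. The adjusted p was 7.37e-10 for Stat6, 1.71e-06 for Stat5a, 0.000423 for Stat5b and 0.00203 for Stat3, and 0.0511 for Stat2. Differences between lines accounted for 95.9% of the variance of log2 values in Stat6, 89.8% in Stat5a, 77.4% in Stat5b, 69.3% in Stat3 and 49.8% in Stat2.

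**Figure D1:**
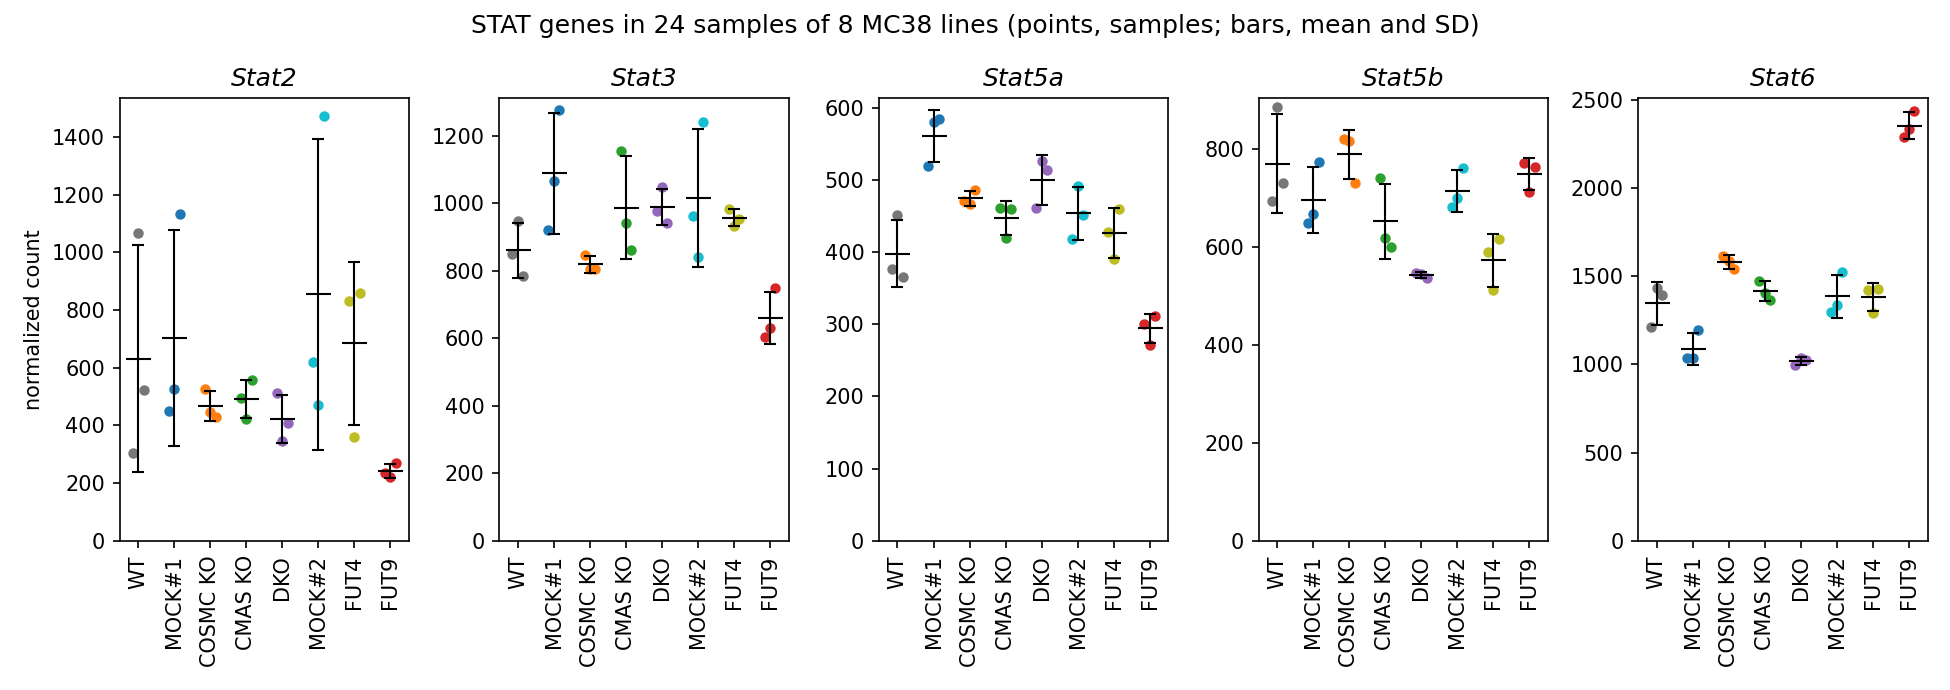
Normalized counts of the 5 STAT genes on the vertical axis, each from 0, in 8 MC38 lines on the horizontal axis. Points are samples, and bars give the mean and SD of 3 samples. Stat6 stands apart in MC38-FUT9 at 2288 to 2438, and the samples of Stat2 scatter widely in MC38-WT, both mock lines and the line labelled MC38-FUT4.

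Stat6, which transmits IL-4 and IL-13 signals, had 2288, 2332 and 2438 normalized counts in samples 1, 2 and 3 of MC38-FUT9. MC38-COSMC KO had 1616, 1585 and 1541, and MC38-CMAS KO had 1475, 1403 and 1365. Every sample of MC38-FUT9 lay above every sample of the other 7 lines. MC38-MOCK#2 had 1299, 1336 and 1524, the line labelled MC38-FUT4 had 1424, 1292 and 1429, and MC38-WT had 1210, 1435 and 1391. These 3 lines overlapped each other. MC38-MOCK#1 had 1039, 1036 and 1194, and MC38-DKO had 996, 1036 and 1027. The means ran from 2353 ± 77.1 (SD, n = 3) in MC38-FUT9 to 1019.7 ± 21.0 in MC38-DKO, a 2.31-fold range. Neighbours in an order and line pairs were tested in a single limma fit of all 8 lines, which shares 1 estimate of the spread, whereas the comparisons given after the levels take the samples of their own lines only. In this order MC38-FUT9 differed from its neighbour MC38-COSMC KO (limma, adjusted p = 7.03e-06) and MC38-WT from its neighbour MC38-MOCK#1 (adjusted p = 0.00899, but 0.133 in the fit of those lines alone), while other neighbours did not differ beyond their spread. Of 28 line pairs, 17 differed in Stat6, where 14.5% of all gene and pair tests passed the threshold and the median gene had 1 such pair.

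Stat2, the interferon partner of IRF9, varied more within lines than between many of them. MC38-MOCK#2 had 619, 472 and 1473 normalized counts, MC38-MOCK#1 had 451, 525 and 1132, and MC38-WT had 304, 1069 and 522. A single sample of each of these 3 lines lay far above the other samples of the line. The line labelled MC38-FUT4 had 833, 360 and 860, and here sample 2 was low. MC38-CMAS KO had 496, 424 and 556, MC38-COSMC KO had 528, 448 and 429, and MC38-DKO had 511, 345 and 409. MC38-FUT9 had 234, 222 and 270, below every other sample of the series. The line means ran from 855 ± 541 (SD, n = 3) in MC38-MOCK#2 to 242 ± 24.98 in MC38-FUT9, a 3.53-fold range. The SD of log2 values within lines was 0.58, at the 96.9th percentile of the 10874 genes whose mean reached 50, whose median was 0.14. Of 28 pairs 4 differed, where 14.5% of all gene and pair tests passed the threshold. All 4 were of MC38-FUT9, against MC38-WT, both mock lines and the line labelled MC38-FUT4. No neighbours in the order differed beyond their spread.

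Stat3, the transducer of IL-6 family cytokines, was lowest in MC38-FUT9 with 605, 630 and 748 normalized counts. Next came MC38-COSMC KO with 848, 805 and 806 and MC38-WT with 851, 948 and 786. The samples of MC38-FUT9 lay below all others. The line labelled MC38-FUT4 had 984, 933 and 955, MC38-CMAS KO had 1157, 943 and 861, and MC38-DKO had 979, 1049 and 943. MC38-MOCK#2 had 964, 842 and 1242, and MC38-MOCK#1 had 922, 1067 and 1278, the highest mean at 1089 ± 179 (SD, n = 3) against 661 ± 76.4 in MC38-FUT9. The range of line means was 1.65-fold. Of 28 pairs 7 differed, where 14.5% of all gene and pair tests passed the threshold. Of the 7, 6 were with MC38-FUT9 and 1 was between MC38-MOCK#1 and MC38-COSMC KO. No neighbours in the order differed beyond their spread.

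Stat5a, which together with Stat5b answers prolactin and growth hormone, was highest in MC38-MOCK#1 with 519, 580 and 584 normalized counts. MC38-DKO had 461, 526 and 514, and MC38-COSMC KO had 471, 467 and 486. MC38-MOCK#2 had 418, 492 and 451, MC38-CMAS KO had 461, 420 and 460, and the line labelled MC38-FUT4 had 428, 391 and 460. These 3 lines overlapped. MC38-WT had 377, 451 and 366, and MC38-FUT9 had 301, 272 and 311, below all other samples. Line means ran from 561 ± 36.4 (SD, n = 3) to 295 ± 20.3, a 1.90-fold range, and MC38-FUT9 differed from its neighbour MC38-WT (limma, adjusted p = 0.00178). Of 28 pairs 12 differed, 7 of them with MC38-FUT9, where 14.5% of all gene and pair tests passed the threshold. The other 5 were of MC38-MOCK#1 with MC38-WT, MC38-CMAS KO, MC38-MOCK#2 and the line labelled MC38-FUT4, and of MC38-WT with MC38-DKO.

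Stat5b followed another order. MC38-COSMC KO had 820, 817 and 732 normalized counts, MC38-WT had 694, 886 and 732, and MC38-FUT9 had 772, 712 and 763. MC38-MOCK#2 had 682, 700 and 762, MC38-MOCK#1 had 649, 667 and 773, and MC38-CMAS KO had 741, 618 and 600. All 6 of these lines overlapped with their neighbours. The line labelled MC38-FUT4 had 591, 512 and 616, and MC38-DKO had 547, 546 and 537, the closest triplet of the gene. Line means ran from 790 ± 49.96 (SD, n = 3) to 543 ± 5.51, a 1.45-fold range, and no neighbours in the order differed beyond their spread. Of 28 pairs 8 differed, where 14.5% of all gene and pair tests passed the threshold. These were 4 with MC38-DKO and 4 with the line labelled MC38-FUT4, each against MC38-WT, MC38-COSMC KO, MC38-MOCK#2 and MC38-FUT9. The ratio of Stat5a to Stat5b normalized counts, which is not corrected for length, was 0.382 to 0.408 in MC38-FUT9 and 0.843 to 0.963 in MC38-DKO, and ran from 0.50 to 0.870 in the 6 remaining lines, of which MC38-MOCK#1 overlapped MC38-DKO.

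Between lines the family did not move as a unit. Over the 8 line means, Pearson's r of log2 values was -0.89 for Stat3 and Stat6, -0.87 for Stat5a and Stat6, 0.87 for Stat3 and Stat5a and -0.31 for Stat5a and Stat5b. Within lines, with the 24 samples centred on their line means, all 10 pairs of genes had a positive r, among them 0.85 for Stat2 and Stat6, 0.70 for Stat3 and Stat6 and 0.60 for Stat5a and Stat5b. These values describe samples that share libraries and their scaling.

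In MC38-FUT9 against MC38-MOCK#2 most of the family differed. Stat2, Stat3 and Stat5a were lower, Stat6 was higher and Stat5b did not pass, so 4 of 5 genes were called, where 24.1% of 21480 genes were, 12.1% higher and 12% lower. Where only genes with a mean of at least 10 were fitted, 5120 of 13315 were called, among them the same 4. Log2 differences are of the normalized count plus 1, which understates the change of low genes. Stat2 fell by 1.64 on the log2 scale (SE 0.386, limma, adjusted p = 0.0233), Stat3 fell by 0.61 (SE 0.153, adjusted p = 0.0301) and Stat5a fell by 0.62 (SE 0.0927, adjusted p = 0.00427). Stat6 rose by 0.77 (SE 0.0766, adjusted p = 0.000973). For Stat5b the log2 difference was 0.07 (SE 0.0712, adjusted p = 0.547). In the 4 called genes the samples of the 2 lines did not overlap, as was so for 36.8% of all genes. The calls of Stat5a and Stat6 held in all 6 fits that left out 1 sample, whereas that of Stat2 held in 2 and that of Stat3 in 1, and both were lost without the mean-variance trend (adjusted p = 0.0657 and 0.0841). In bulk RNA, fewer cells with a transcript and less RNA per cell cannot be told apart. The fibroblast markers summed to 1582 to 2561 in MC38-FUT9 and to 1212 to 2076 in MC38-MOCK#2, and the depth was estimated at 13500000 to 16200000 and 8200000 to 12100000 reads. Their part in the result was not tested.

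**Figure D2:**
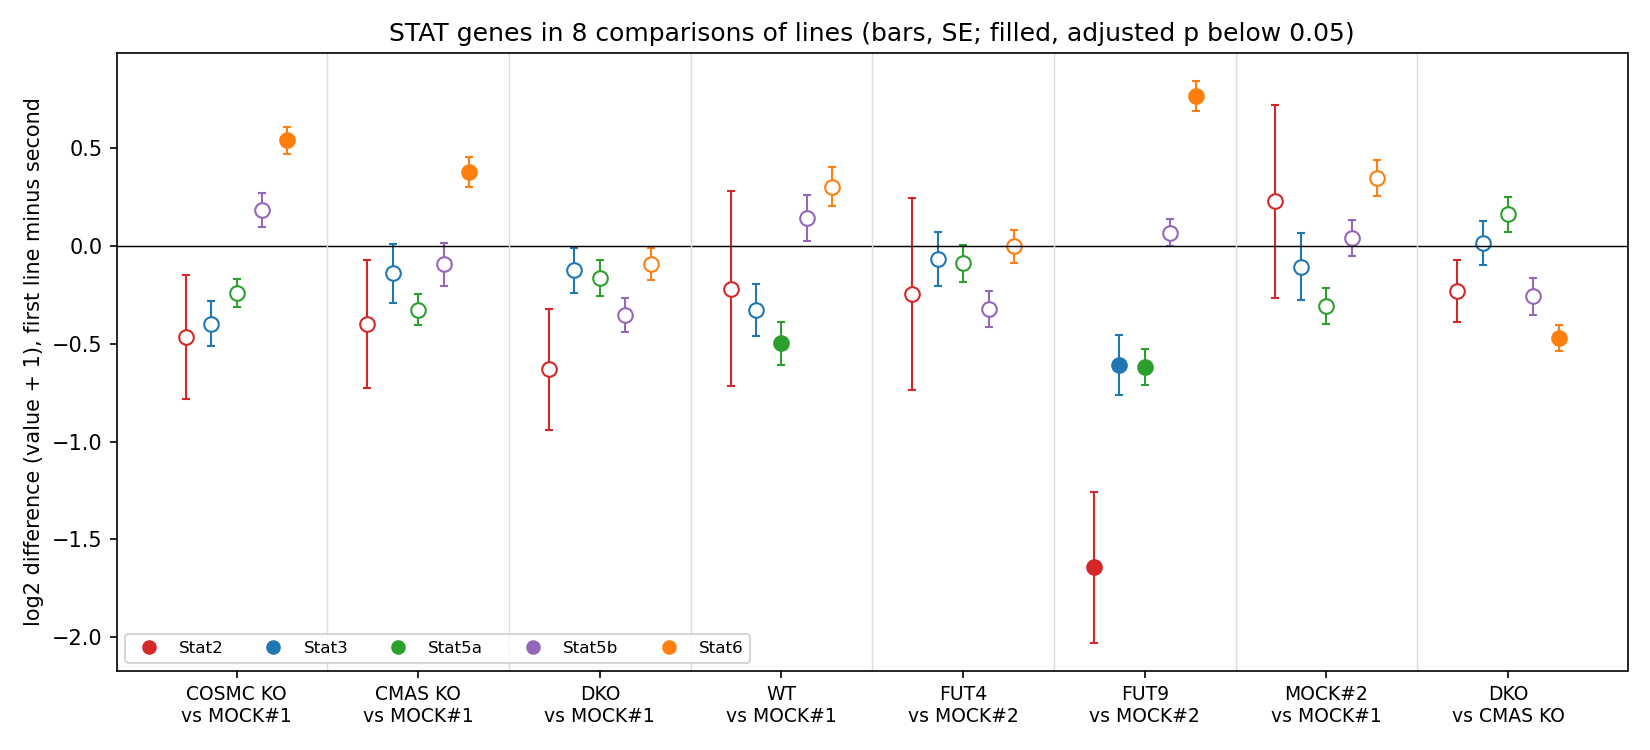
Log2 difference of the normalized count plus 1 (vertical axis, first line minus second) for the 5 STAT genes in 8 comparisons of lines (horizontal axis). Bars are SE, and filled points have an adjusted p below 0.05. In MC38-FUT9 against MC38-MOCK#2, Stat2 stands at -1.64 and Stat6 at 0.77, and no point is filled in MC38-DKO against MC38-MOCK#1.

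The line labelled MC38-FUT4, compared with the same MC38-MOCK#2 samples, had 0 of 5 genes called by limma, where 16.1% of all genes were. At an unadjusted p under 0.05 there was 1 of 5, where 6370 of 21734 genes were. It was Stat5b, with a log2 difference of -0.32 (SE 0.0919, adjusted p = 0.0581) and no overlap between the lines, as in 32.1% of genes. With all 8 lines in a single fit this gene passed (adjusted p = 0.0232). Stat6 differed by -0.0029 on the log2 scale, Stat3 by -0.07, Stat5a by -0.09 and Stat2 by -0.25, and the sign for Stat6 turned under another scaling.

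Loss of COSMC was compared with MC38-MOCK#1. Of the 5 genes, only Stat6 was called, where 11.6% of 22172 genes were. Stat6 rose by 0.54 on the log2 scale (SE 0.0702, limma, adjusted p = 0.00453), with 1541 to 1616 normalized counts against 1036 to 1194. Stat3 and Stat5a lay lower without overlap in MC38-COSMC KO, as 28.4% of genes did in either direction, but did not pass, with log2 differences of -0.40 (SE 0.114, adjusted p = 0.0675) and -0.24 (SE 0.0719, adjusted p = 0.0774). The log2 difference was -0.47 (adjusted p = 0.401) for Stat2 and 0.18 (adjusted p = 0.243) for Stat5b. Stat3 passed in the fit of all 8 lines (adjusted p = 0.0486), and the call of Stat6 was lost without sample 2 of MC38-COSMC KO (adjusted p = 0.0542) and when chromosome medians were removed (0.23, adjusted p = 0.0744).

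MC38-CMAS KO gave a like picture against the same MC38-MOCK#1 samples. Stat6 was again the only gene called, in a comparison where 5.76% of 22024 genes were, and it rose by 0.38 on the log2 scale (SE 0.0756, limma, adjusted p = 0.0358). Stat5a did not overlap between the lines (24.3% of genes did not) and had a log2 difference of -0.33 (SE 0.0800, adjusted p = 0.0639). It passed with all 8 lines in the fit (adjusted p = 0.0269). The log2 differences of Stat2, Stat3 and Stat5b were -0.40, -0.14 and -0.09, with adjusted p of 0.539, 0.651 and 0.682. The call of Stat6 held in 1 of 6 fits with a sample left out.

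In MC38-DKO, with both genes lost, 0 of 5 STAT genes were called against MC38-MOCK#1 by limma, where 0.092% of 21738 genes were. At an unadjusted p under 0.05 there was 1 of 5, where 1632 of 21738 genes were. It was Stat5b, at -0.35 on the log2 scale (SE 0.0887, adjusted p = 0.332), whose samples did not overlap, as in 11.2% of genes. Stat6 differed by -0.09 and its samples overlapped. MC38-DKO was therefore compared with MC38-CMAS KO, which asks what the loss of COSMC does where CMAS is already lost. There Stat6 fell by 0.47 on the log2 scale (SE 0.0656, limma, adjusted p = 0.00622), the only call of 5, where 6.93% of 21858 genes were called. Its samples lay at 996 to 1036 against 1365 to 1475. Stat5b differed by -0.26 (adjusted p = 0.160) without overlap, as in 24.5% of genes.

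The difference between both contrasts for COSMC loss was tested as an interaction over the 12 samples of these 4 lines. It was -1.01 for Stat6 (SE 0.0963, limma, adjusted p = 5.9e-06), 0.40 for Stat5a (SE 0.115, adjusted p = 0.0223) and -0.44 for Stat5b (SE 0.133, adjusted p = 0.0275). So 3 of 5 genes were called, where 22.1% of 21396 genes were. Where only genes with a mean of at least 10 were fitted, 4615 of 13532 were called, among them the same 3. Stat3 at 0.41 (adjusted p = 0.0978) and Stat2 at 0.23 (adjusted p = 0.724) did not pass. The call of Stat6 held in 12 of 12 fits with a sample left out, that of Stat5a in 8 and that of Stat5b in 5.

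The controls themselves differed. Against MC38-MOCK#1, Stat5a in MC38-WT fell by 0.50 on the log2 scale (SE 0.109, limma, adjusted p = 0.0458), the only call of 5 where 5.51% of 21621 genes were called, and the call held in 1 of 6 fits with a sample left out. Stat6 lay higher without overlap, as 23.4% of genes were without overlap in either direction, at 0.30 (adjusted p = 0.133, and 0.00899 in the fit of all 8 lines). Between the mock lines 0 of 5 genes were called by limma, where 11.3% of all genes were. At an unadjusted p under 0.05 there were 2 of 5, where 5711 of 21667 genes were. The 2 were Stat6 at 0.35 (adjusted p = 0.0576) and Stat5a at -0.31 (adjusted p = 0.0771) in MC38-MOCK#2 minus MC38-MOCK#1, both without overlap, as in 28.7% of genes. In the fit of all 8 lines both passed (adjusted p = 0.00217 and 0.0246). Stat6 was thus lowest in MC38-MOCK#1 and MC38-DKO, and its differences from MC38-MOCK#1 in the knockouts stand beside a difference of 0.35 between both controls. In the limma fit of all 8 lines, Stat6 in MC38-CMAS KO was not called against MC38-WT (adjusted p = 0.720) or MC38-MOCK#2 (adjusted p = 0.865). Nor was it called in MC38-COSMC KO against MC38-WT (adjusted p = 0.0862) or MC38-MOCK#2 (adjusted p = 0.09997). In MC38-DKO it was called lower against both.

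Genes around a STAT gene were taken as those that start within 1 Mb of it and have a mean of at least 10. Around Stat6, the median log2 difference of 65 such genes was 0.34 in MC38-COSMC KO against MC38-MOCK#1, with 31 higher and 0 lower (11.6% of all genes were called), beside 0.54 for Stat6 and 0.32 for all of chromosome 10. In MC38-CMAS KO it was 0.24, with 14 higher and 0 lower (5.76% of all genes), beside 0.38 for Stat6 and 0.18 for the chromosome. Genes of the region thus lay higher together with Stat6 in both knockouts. In MC38-DKO against MC38-CMAS KO the median was -0.21, with 1 higher and 11 lower (6.93% of all genes), and chromosome 10 also stood at -0.21. In the interaction the median was -0.60, with 3 higher and 37 lower (22.1% of all genes), beside -1.01 for Stat6 and -0.52 for chromosome 10. These shares include genes of low counts, which the window leaves out. Where only genes with a mean of at least 10 were fitted, 3008 of 13502 were called in MC38-COSMC KO and 1634 of 13504 in MC38-CMAS KO. In MC38-DKO against MC38-CMAS KO there were 1814 of 13512, and in the interaction 4615 of 13532. With chromosome medians removed, the log2 difference of Stat6 was 0.20 in MC38-CMAS KO (limma, adjusted p = 0.161), and its interaction of -0.49 and its difference of -0.27 between MC38-DKO and MC38-CMAS KO kept their calls.

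In MC38-FUT9 against MC38-MOCK#2 the window around Stat6 had a median of 0.46, with 34 higher and 4 lower (24.1% of all genes were called), whereas chromosome 10 as a whole stood at 0.07. Where only genes with a mean of at least 10 were fitted, 5120 of 13315 were called. Of the 65 genes, 12 had a larger difference than Stat6 and 53 a smaller one. The 61 genes around Stat2, in part the same genes, had a median of 0.47 with 34 higher and 1 lower, and all 61 lay above Stat2 at -1.64. Stat2 therefore moved opposite to its surroundings and Stat6 in the same direction as its own. Around Stat3 the median of 52 genes was -0.19 with 3 higher and 13 lower, and chromosome 11 stood at -0.15. With chromosome medians removed, Stat3 was at -0.45 (limma, adjusted p = 0.0713) and lost its call, while Stat2 (-1.71), Stat5a (-0.46) and Stat6 (0.70) kept theirs. The part of these regional shifts in the results was not tested further.

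**Figure D3:**
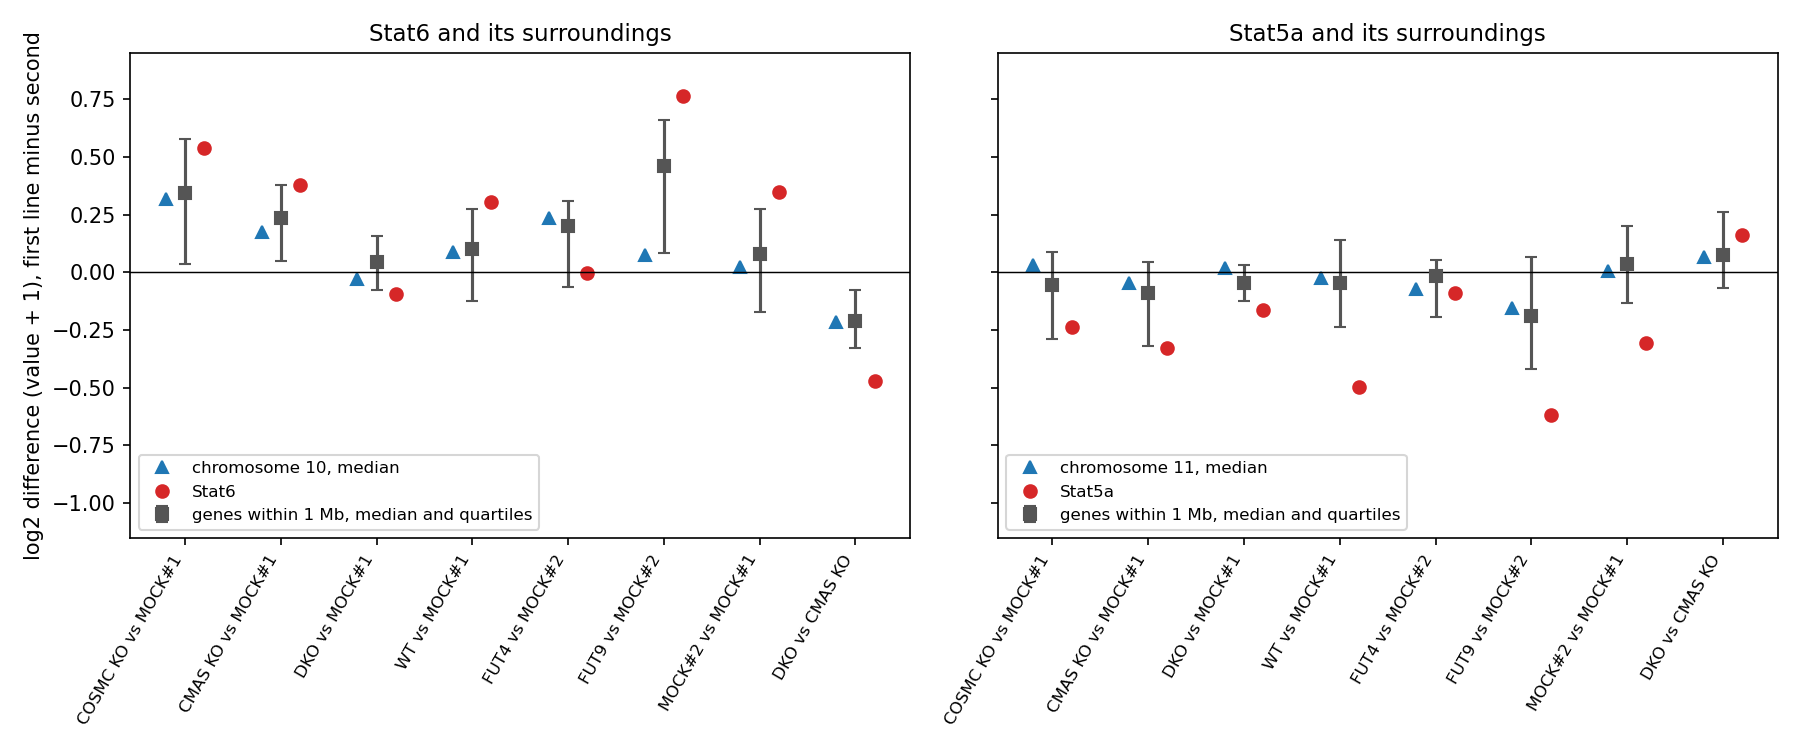
Log2 difference on the vertical axis in 8 comparisons on the horizontal axis, for Stat6 and Stat5a beside the genes within 1 Mb (median and quartiles) and the median of the chromosome. Stat6 and its surroundings lie above 0 in MC38-COSMC KO at 0.54 and 0.34, and Stat6 lies above the 0.46 of its window in MC38-FUT9.

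Upstream of the STAT proteins, the lists held receptors, ligands and kinases, each with all its members counted. Of 21 receptors, 17 were tested in MC38-FUT9 against MC38-MOCK#2, with 1 higher and 5 lower, where 12.1% of all genes were higher and 12% lower. Their median was -0.12 on the log2 scale, beside 0.0088 for all 21480 genes tested. Il13ra1, a receptor chain for IL-13, had 147 to 199 normalized counts in MC38-FUT9 and 457 to 639 in MC38-MOCK#2 and fell by 1.62 (limma, adjusted p = 0.00119). It was at 135 to 178 in MC38-COSMC KO against 348 to 621 in MC38-MOCK#1, where it fell by 1.48 (adjusted p = 0.00929). Both lines with the highest Stat6 RNA thus had the lowest Il13ra1 RNA. Il4ra, the IL-4 receptor chain that works upstream of STAT6, was at 248 to 322 in the line labelled MC38-FUT4 against 80 to 103 in MC38-MOCK#2 and rose by 1.62 (adjusted p = 0.000936). Il2rg, the common cytokine receptor chain, rose there as well, by 2.80 (adjusted p = 0.0117), to 23 to 33. The line labelled MC38-FUT4 had 3 receptors higher and 2 lower of 19 tested, where 16.1% of all genes were called.

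Of the 4 Janus kinases, 2 were lower in MC38-FUT9 than in MC38-MOCK#2, where 12% of all genes were lower. Jak3, which pairs with the common cytokine receptor chain, had 11 to 14 against 74 to 141 normalized counts and fell by 3.01 on the log2 scale (limma, adjusted p = 0.000715). Tyk2, which acts at the interferon receptor, had 69 to 82 against 148 to 205 and fell by 1.26 (adjusted p = 0.00203). Jak2 was lower in the line labelled MC38-FUT4, at 224 to 271. Against MC38-MOCK#1, no Janus kinase was called by limma in either single knockout, MC38-DKO or MC38-WT. Of all genes, 11.6% were called in MC38-COSMC KO, 5.76% in MC38-CMAS KO, 0.092% in MC38-DKO and 5.51% in MC38-WT. Of the cytokine ligands, 7 of 12 were tested in MC38-FUT9, with 1 higher and 3 lower, beside 24.1% of all genes called. Il7, a lymphocyte growth factor that acts through STAT5, had 0 to 2 against 111 to 133 normalized counts (adjusted p = 0.000503), and Lif, an IL-6 family cytokine, fell by 1.81 to 97 to 110 (adjusted p = 0.00485). In MC38-COSMC KO Il7 was at 19 to 27 against 55 to 75 and fell by 1.48 (adjusted p = 0.00836). Tslp, also in the rule for named ligands, was at 0 to 4 throughout.

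Among 17 inhibitors and phosphatases of the pathway, 16 differed among the 8 lines by the F test, where 43% of all genes did. Where only genes with a mean of at least 10 were fitted, 9153 of 13515 did. In MC38-FUT9 against MC38-MOCK#2, 5 were higher and 6 lower, where 24.1% of all genes were called. Socs5, a suppressor of cytokine signalling, had 1043 to 1258 normalized counts in MC38-FUT9 and 469 to 704 in MC38-MOCK#2 and rose by 1.06 (limma, adjusted p = 0.0045). It was lowest in MC38-MOCK#1 at 191 to 207 and rose in MC38-COSMC KO (0.94), MC38-CMAS KO (1.39), MC38-WT (1.06) and MC38-MOCK#2 (1.47) against that line, with adjusted p from 0.00147 to 0.00815. Socs4, of the same family, rose by 0.97 in MC38-COSMC KO, 0.77 in MC38-CMAS KO and 0.98 in MC38-FUT9 against their mock lines. In MC38-DKO against MC38-CMAS KO both fell, Socs5 by 1.00 and Socs4 by 0.70, as did Pias4 by 0.51, and Ptpn2 rose by 0.40. Ptpn11, the phosphatase SHP-2, rose in MC38-FUT9 by 0.54 to 3580 to 3883 (adjusted p = 0.00225). Of the 5 partners and coactivators, 1 was higher and 1 lower in MC38-FUT9. Ncoa1, a coactivator, rose by 0.62 to 369 to 446 (adjusted p = 0.00495), and Crebbp fell by 0.47 in the line labelled MC38-FUT4.

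Of the 16 STAT2-linked genes, 12 were called lower and 0 higher in MC38-FUT9 against MC38-MOCK#2, where 12% of all genes were called lower. Their median was -4.13 on the log2 scale. Oasl1 and Oas1a belong to the antiviral oligoadenylate synthetase family. Oasl1 had 11 to 25 against 256 to 664 normalized counts and fell by 4.47 (limma, adjusted p = 0.000926), and Oas1a had 2 to 5 against 89 to 448 and fell by 5.16 (adjusted p = 0.00193). Of the genes whose promoter windows are printed above, Ifit1 fell by 4.31 (adjusted p = 0.00747), Rsad2 fell by 4.66 (adjusted p = 0.00912) and Isg15 fell by 3.94 (adjusted p = 0.0118). Ifit3 had a log2 difference of -2.30 (adjusted p = 0.124). The other 3 that did not pass were Ifit2 (-0.25), Mx1 (-1.55) and Bst2 (-0.51). In the line labelled MC38-FUT4, Ifit2 was the only gene of the list called, where 16.1% of all genes were. It had 98 to 114 against 215 to 367 and fell by 1.40 (limma, adjusted p = 0.00457). Against MC38-MOCK#1, 2 genes fell in MC38-COSMC KO (Oas1a and Cmpk2), 1 in MC38-CMAS KO (Oas1a) and 0 in MC38-DKO by limma. Of all genes, 11.6%, 5.76% and 0.092% were called in these comparisons, higher or lower.

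The mean of log2 values over the 16 genes was 3.38, 2.72 and 3.77 in samples 1, 2 and 3 of MC38-FUT9, the lowest 3 of 24. It was 6.03, 5.80 and 8.42 in MC38-MOCK#2 and 5.16, 8.38 and 7.00 in MC38-WT. The sample with the highest Stat2 of each of these lines also had the highest mean. MC38-MOCK#1 had 5.59, 5.74 and 7.32, and the line labelled MC38-FUT4 had 7.22, 4.94 and 7.22, with sample 2 the lowest of its line, as for Stat2. MC38-COSMC KO had 5.61, 4.98 and 4.26 and MC38-DKO had 6.61, 5.21 and 5.00, with sample 1 the highest, as for Stat2. In MC38-CMAS KO the values were 6.57, 5.19 and 4.72, and here sample 3 had the highest Stat2 and the lowest mean. Across the 24 samples, Pearson's r between Stat2 and this mean was 0.91, over the 8 line means it was 0.93 and within lines 0.90. These values are a description of samples that share their libraries, and Stat2 is itself an interferon-stimulated gene.

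**Figure D4:**
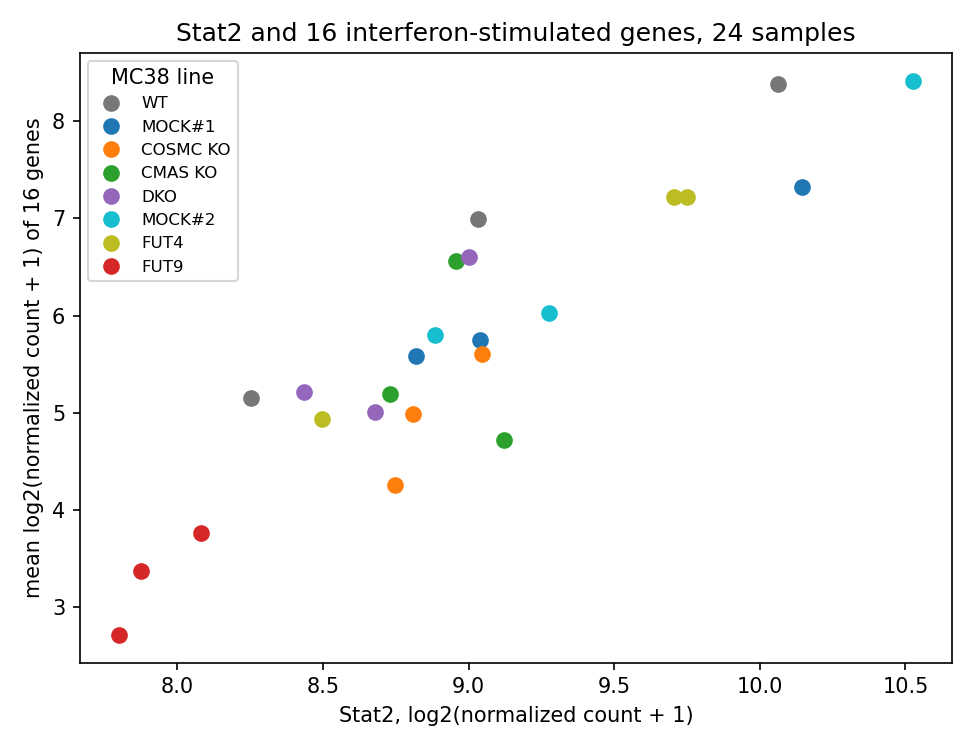
Mean log2(normalized count + 1) of 16 interferon-stimulated genes (vertical axis) against Stat2 on the same scale (horizontal axis) in 24 samples, coloured by line. The 3 samples of MC38-FUT9 sit at the lower left, with means of 2.72 to 3.77, and sample 3 of MC38-MOCK#2 at the upper right, with 8.42.

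For the other members the same measure was lower. Stat3 and its 16 listed targets had r of 0.24 over the 24 samples, -0.04 over line means and 0.64 within lines. For Stat6 and the 10 target genes used the values were -0.14, -0.34 and 0.67, for Stat5a and 10 genes 0.38, 0.47 and 0.14, and for Stat5b 0.08, -0.09 and 0.48. Of the 13 STAT6-linked genes, the 10 used had a value above 0 in any sample. Only 8 passed the filter of the F test, so this mean includes genes that were 0 in most samples. Over the same comparison of MC38-FUT9 with MC38-MOCK#2, 3 of 15 STAT3-linked genes tested were higher and 4 lower, 2 of 9 STAT5-linked genes were higher and 1 lower, and 1 of 8 STAT6-linked genes was higher and 2 lower. Of all genes 12.1% were higher and 12% lower. Myc, a growth regulator, had 2444 to 3179 against 1182 to 1349 normalized counts and rose by 1.08 (limma, adjusted p = 0.00112). Ccnd1, which encodes cyclin D1 and is in both the STAT3 and the STAT5 list, rose by 1.07 to 6297 to 6900 (adjusted p = 0.000386). Timp1, an inhibitor of metalloproteinases, rose by 0.69 in MC38-FUT9 and by 0.91 in the line labelled MC38-FUT4. Bcl6, a transcriptional repressor, rose by 1.28 in MC38-FUT9 to 648 to 826 (adjusted p = 0.00474). Gata3, which STAT6 induces in T helper cells, was at 5 to 7 against 18 to 31 and fell by 1.77 (adjusted p = 0.0084). In MC38-DKO against MC38-MOCK#1 no gene of any of the 9 lists was called by limma, where 0.092% of all genes were.

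Genes of the most similar pattern were sought among 10873 genes whose mean reached 50, by Pearson's r of log2 values over the 24 samples. For Stat2 they were Parp10 (0.97), Helz2 (0.96) and Irf7 (0.94). For Stat6 they were Atp8b2 (0.95), Zfyve9 (0.95) and Zfp275 (0.94). Stat5a was closest to Gpr108 (0.93), Fads3 (0.93) and Pld2 (0.93), Stat3 to Decr2 (0.91), Tspan17 (0.90) and Rnaset2a (0.89), and Stat5b to Arhgef10 (0.89), Trerf1 (0.89) and C1qtnf6 (0.88). Estimated reads per sample ran from 219 for Stat5a to 3087 for Stat6, which gives counting coefficients of variation of 1.8% to 6.76% and covers counting error only.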

How the data were processed

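Stranded mRNA libraries were sequenced by the authors as single reads of 50 bases, trimmed with Sickle, aligned to GRCm38 with HISAT2 2.0.4, processed with SAMtools 0.1.19 and counted per gene with featureCounts of Subread 1.5.0-p3, leaving out reads over several genes. The deposited values (unit score) are read counts that the authors scaled by 1 factor per library (edgeR 3.18.1, TMM) and rounded, here called normalized counts. They are not raw counts, so limma 3.58.1 in R 4.3.3 was used (lmFit, eBayes with trend) on log2(value + 1). The deposited table also gives each gene's exonic length.

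Each comparison took the 3 samples of either line, left out genes with more than 4 zeros among 6 samples (8 of 12 in the interaction, 20 of 24 over all lines), and adjusted p over all genes tested (Benjamini-Hochberg, call below 0.05). The members, the lists and the tests were chosen with earlier results of these data known. Named from each list were up to 3 genes with the smallest adjusted p in the F test, from the annotation genes that overlap a member, and for each member the 3 genes of highest r. Other list genes (Pias4, Ptpn2, Cmpk2 and the STAT2-linked genes beyond Oasl1, Oas1a and Ifit2) and those named for a promoter match were named after values were seen. The limma step was tested on a simulation of MC38-FUT9 against MC38-MOCK#2, in which 200 of 22225 genes were given a 1.5-fold change. It recovered 46 of the 200 with the correct sign and called 1 gene that had none. Alternatives were the pseudocount, filter, scaling, fit of all 8 lines, trend, replicate block, chromosome medians and leaving out each sample.

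Depth was estimated from the whole numbers that scaling and rounding skip or repeat (1 read was worth 0.756 to 1.67 normalized counts). Earlier forms of this estimate failed their test on simulated data, and it was changed after its values had been seen. It enters no test. Promoters are of RefSeq, GRCm38.p6. Coding sequences and positions are of the GENCODE annotation of GRCm38. Python 3.11.15, numpy 2.4.6, pandas 2.3.3, Biopython 1.88 and matplotlib 3.10.9 were used. Amino acid sequences were not used here.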

Additional observations from a re-analysis of the deposited data

Results flagged for a closer look

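For 3 STAT genes the difference of a line without COSMC from its reference was unequal with and without CMAS, by the limma interaction over 12 samples of 4 lines. Each genotype is 1 line, so genotype and line cannot be told apart. For Stat6 the difference between the effects was -1.01 on the log2 scale (adjusted p = 5.9e-06), with 0.54 against MC38-MOCK#1 where CMAS was intact and -0.47 against MC38-CMAS KO where it was lost. The 65 genes within 1 Mb of Stat6 had a median interaction of -0.60, with 3 higher and 37 lower, and chromosome 10 stood at -0.52. Where only genes with a mean of at least 10 were fitted, 4615 of 13532 were called. With chromosome medians removed the value for Stat6 was -0.49 and kept its call. For Stat5a the interaction was 0.40 (adjusted p = 0.0223) and for Stat5b -0.44 (adjusted p = 0.0275). No cause was tested.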

How the results depend on the processing

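Of 445 values for the 5 genes under other settings, 409 kept their direction and their side of the threshold, 14 lost and 19 gained a call, and 3 turned their sign, none of them a called value. The turned values were Stat6 in the line labelled MC38-FUT4 at 0.0062 with median-of-ratios scaling, Stat5b in MC38-FUT9 at -0.017 with equal totals, and Stat3 in MC38-DKO against MC38-CMAS KO at -0.051 with chromosome medians removed. With 1 sample left out, 361 of 420 values were unaltered in this sense, 32 lost and 9 gained a call and 18 turned their sign, within these ranges: Stat2 from -0.66 to 0.0071 in MC38-CMAS KO, -0.69 to 0.21 in MC38-WT, -0.58 to 0.24 in the line labelled MC38-FUT4, -0.25 to 0.63 between the mock lines and -0.17 to 0.49 in the interaction; Stat3 from -0.078 to 0.13 in MC38-DKO against MC38-CMAS KO, -0.19 to 0.087 in the line labelled MC38-FUT4 and -0.26 to 0.0198 between the mock lines; Stat5b from -0.0084 to 0.12 between the mock lines; and Stat6 from -0.048 to 0.067 in the line labelled MC38-FUT4. Without sample 3 of MC38-MOCK#2, whose Stat2 was 1473, Stat2 turned sign in the line labelled MC38-FUT4 (0.24) and between the mock lines (-0.25). The cause was not tested.

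The number of STAT genes called also moved. With a mean of at least 10 it was 2 in MC38-COSMC KO, 2 in MC38-CMAS KO, 1 in the line labelled MC38-FUT4 and 1 between the mock lines, and with equal totals 3 in MC38-COSMC KO. With all 8 lines in the fit it was 2 in MC38-COSMC KO, MC38-CMAS KO, MC38-WT and between the mock lines and 1 in the line labelled MC38-FUT4. Without the trend it was 0 in MC38-CMAS KO, MC38-WT and MC38-DKO against MC38-CMAS KO, 2 in MC38-FUT9 and 1 in the interaction. With chromosome medians removed it was 0 in MC38-COSMC KO and MC38-CMAS KO. In the F test Stat2 passed with a mean of at least 10 (adjusted p = 0.0476), equal totals (0.0456), median-of-ratios scaling (0.0494) and chromosome medians removed (0.0409), by limma. Stat5b in the interaction lost its call with equal totals (limma, adjusted p = 0.059), and Stat5a and Stat5b lost theirs without the trend (0.051 and 0.0762), as did Stat6 in MC38-CMAS KO (0.14) and in MC38-DKO against MC38-CMAS KO (0.0674) and Stat5a in MC38-WT (0.136).

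Over all genes, calls without the trend numbered 1135 (2563 with it) in MC38-COSMC KO, 726 (1268) in MC38-CMAS KO, 40 (20) in MC38-DKO, 717 (1192) in MC38-WT, 2270 (3509) in the line labelled MC38-FUT4, 3430 (5166) in MC38-FUT9, 1389 (2454) between the mock lines and 692 (1515) in MC38-DKO against MC38-CMAS KO. With all 8 lines they numbered 2130 in MC38-CMAS KO, 156 in MC38-DKO, 2878 in MC38-WT, 3822 between the mock lines and 2320 in MC38-DKO against MC38-CMAS KO, and with chromosome medians removed 41 in MC38-DKO. Equal totals moved the split of higher and lower calls from 1367 and 1196 to 1125 and 1746 in MC38-COSMC KO and from 2596 and 2570 to 1979 and 3237 in MC38-FUT9.

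With 1 sample left out, STAT genes and all genes called ranged from 0 to 2 and 675 to 2137 in MC38-COSMC KO, 0 to 1 and 122 to 876 in MC38-CMAS KO, 0 to 0 and 0 to 4 in MC38-DKO, 0 to 1 and 31 to 693 in MC38-WT, 0 to 0 and 1621 to 3112 in the line labelled MC38-FUT4, 2 to 4 and 3089 to 5065 in MC38-FUT9, 0 to 0 and 632 to 1737 between the mock lines, 0 to 1 and 231 to 761 in MC38-DKO against MC38-CMAS KO, 1 to 3 and 3925 to 4697 in the interaction, and 4 to 5 and 9399 to 10456 in the F test.

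Whether the sample numbers pair samples across lines is not given in the sources used here, and the correlations did not settle it. Of 24 pairs of same-numbered samples 10 correlated above 0.1 (r from -0.21 to 0.25), and 9 of 24 samples correlated best with their own number. With the replicate block, STAT genes called were 0 in MC38-COSMC KO, MC38-CMAS KO and MC38-WT and 2 between the mock lines. Of all genes, limma with the block called 4 in MC38-COSMC KO, 1 in MC38-CMAS KO, 0 in MC38-DKO (1408 at an unadjusted p under 0.05), 0 in MC38-WT (3788 at an unadjusted p under 0.05), 1756 in the line labelled MC38-FUT4 and 795 in MC38-DKO against MC38-CMAS KO, and Stat2 passed the F test (adjusted p = 0.0388). The 3 harvests per line and a Stat2 that spreads widely within lines limit what the comparisons can show.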
